A study of Rattus norvegicus with 12 samples.

Results

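The nuclear-encoded subunits of respiratory complex III and cytochrome c were described here as a set of 10 genes: Uqcrc1, Uqcrc2, Uqcrfs1, Uqcrb, Uqcrh, Uqcrq, Uqcr10, Uqcr11, Cyc1 and Cycs. They were chosen by name from the non-control rows of the arrays and not by a cut on their values. Earlier results of these data were known when they were chosen. They were represented by 16 of the 45598 distinct probes, and all 16 were among the 17890 probes that passed the filter for testing. This filter asked for 5 or more of the 12 arrays to read well above background. Messenger RNA was measured on 1-colour Agilent arrays of 60-base probes in cultures of N27, an immortalised rat line of midbrain dopaminergic origin. There were 7 cultures in which Vdac1, the gene of voltage-dependent anion channel 1, had been disrupted by CRISPR (KO 1 to KO 7) and 5 unedited wild-type cultures (WT 3, WT 5, WT 6, WT 7 and WT 8), all harvested without a further treatment in the labels. How many clones the knockout cultures came from, and which part of the gene was edited, is information the sources used here do not give. It is also not stated whether the cultures were grown independently, so the p-values measure only the spread between these cultures.

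Complex III sits in the inner mitochondrial membrane, takes electrons from reduced coenzyme Q and hands them to cytochrome c, pumping protons as it does so. A cytochrome b subunit, encoded by mitochondrial DNA and not among these genes, forms the catalytic centre together with the Rieske iron-sulphur protein and cytochrome c1, while the core proteins and small subunits surround it. Cytochrome c carries the electrons on to complex IV, and outside the mitochondrion the same protein starts the assembly of the apoptosome. VDAC1, the channel encoded by the edited gene, passes metabolites through the outer membrane that encloses this chain.

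Values are given as log2 of the processed signal minus the array's 75th percentile, called the log2 level below, and differences are knockout minus wild type. The 75th percentile lay between 142.7 and 691.8 in the knockout arrays and between 120.1 and 449.7 in the wild-type arrays, and 42.9% to 53.8% of spots on knockout arrays and 42.3% to 50.9% on wild-type arrays were well above background. The arrays lay on 3 slides, each with both genotypes, and slide 2 held 3 knockout arrays and 1 wild-type array (WT 5). Slide 3 (KO 4, KO 5, WT 6 and WT 7) was scanned on another day than slides 1 and 2. Its 75th percentiles were the lowest, 120.1 to 189.7, against 219.9 to 691.8 on the other slides. The 12 arrays stood apart by the sample number in the labels. On the first principal component (36.64% of the variance) the 5 arrays numbered 1 to 4 (knockouts 1 to 4, and WT 3) had scores of 34.9 to 48.2. The 7 numbered 5 to 8 had scores of -49.7 to -16.3. WT 3 was therefore the only wild-type array of its kind, and what the numbers stand for is not given. Of 10 neuronal markers, 5 were well above background on at least 5 arrays, among them Th, the dopamine-synthesis enzyme, on all 12, while Ddc, Slc6a3 and Map2 were so on none. At least 5 arrays showed 3 of 3 neural progenitor markers, 0 of 4 astrocyte, 0 of 4 oligodendrocyte, 1 of 4 microglial (Cx3cr1) and 3 of 4 fibroblast markers, and none of the tested markers passed the test between genotypes. Vdac1 itself, the edited gene, was lower in the knockout without overlap of the groups at each of its 3 probes, by -1.15, -1.22 and -1.23, of which the second passed the test (limma adjusted p = 0.0897, 0.0422 and 0.0562).

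The 60-base probes whose readings are described most closely below lie in coding sequence, and they are shown because the results turn on what they bind. The array files, whose headers name build rn4, place the Uqcrh probe at chr5:136260836-136260895 and the Uqcrc2 probe at chr1:179489883-179489942, both on the forward strand. The Uqcrfs1 probe, at chr17:40433660-40433719 on the forward strand, covers the codons of a cysteine-and-histidine loop that holds the iron-sulphur cluster, and these are in capitals. No genome of that build was used here, so exon borders were not looked up.
Uqcrh probe: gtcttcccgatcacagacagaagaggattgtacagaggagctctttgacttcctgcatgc
Uqcrc2 probe: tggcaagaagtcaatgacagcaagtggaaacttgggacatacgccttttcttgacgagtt
Uqcrfs1 probe: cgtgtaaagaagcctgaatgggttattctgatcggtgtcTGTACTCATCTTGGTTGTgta

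Promoter sequences were available from RefSeq (build GRCr8) for 7 of the 10 genes, and the 250 bases before the annotated start were searched on both strands. Uqcrb, Uqcr11 and Cyc1 were the genes with no entry. The promoters of the genes with the highest differences, Uqcrh (chr5:134790883-134791132, reverse strand) and Uqcrc2 (chr1:184598990-184599239, forward strand), are shown with that of Cycs (chr4:80984768-80985017, reverse strand). Capitals mark matches to the letters CCGGAAG, the core bound by ETS factors such as GABP, in Uqcrh and Uqcrc2, and to GCATGCG, the core bound by nuclear respiratory factor NRF1, in Cycs, on either strand.
Uqcrh promoter: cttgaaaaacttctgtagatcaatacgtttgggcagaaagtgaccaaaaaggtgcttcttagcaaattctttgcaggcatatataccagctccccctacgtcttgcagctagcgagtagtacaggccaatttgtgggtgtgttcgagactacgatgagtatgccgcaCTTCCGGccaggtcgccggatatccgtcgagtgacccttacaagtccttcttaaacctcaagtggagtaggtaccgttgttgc
Uqcrc2 promoter: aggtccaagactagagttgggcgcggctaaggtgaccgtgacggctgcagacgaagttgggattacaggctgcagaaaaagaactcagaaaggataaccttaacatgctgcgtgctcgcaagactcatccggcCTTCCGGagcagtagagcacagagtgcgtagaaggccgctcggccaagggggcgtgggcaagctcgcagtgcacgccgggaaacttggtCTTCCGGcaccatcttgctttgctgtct
Cycs promoter: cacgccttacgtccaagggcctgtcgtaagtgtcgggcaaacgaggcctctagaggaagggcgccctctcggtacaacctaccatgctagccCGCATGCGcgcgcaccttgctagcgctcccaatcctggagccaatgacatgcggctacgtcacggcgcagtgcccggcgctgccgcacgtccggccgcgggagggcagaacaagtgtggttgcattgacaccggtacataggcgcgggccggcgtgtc
The ETS letters were present in 3 of the 7 promoters (Uqcrc2, Uqcrh and Uqcrq) and in 7.7% of all 27457 promoters in the table. The NRF1 letters were present in Uqcrc1 and Cycs and in 3.1% of all promoters, overlapping on the 2 strands in both genes. In Uqcrc1 they also overlap the NRF1 half-site TGCGCA, which 6.6% of all promoters held and no other of the 7. The CREB half-site TGACG was in 5 of the 7 and in 19.0% of all promoters, and the SP1 letters GGGCGG in Uqcrfs1 and in 32.4% of all. These are matches of letters and not measured binding. The promoters counted as background were not matched for their share of G and C bases, which ran between 39.2% and 65.6% in the 7.

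None of the 16 probes passed the test between knockout and wild type. Over all probes tested, 126 (0.704%) passed as higher in the knockout and 79 (0.442%) as lower (limma, Benjamini-Hochberg adjusted p under 0.05), so a count of 0 in 16 lies near the background. The counts over all probes moved with single arrays, to 442 higher and 333 lower without WT 3 and to 13 and 5 without WT 5, and 0 of the 16 probes passed when any 1 array was left out. Each array measured the RNA of a whole culture, so less RNA per cell and fewer cells of a kind cannot be told apart. At unadjusted p under 0.05, 2 of the 16 were higher and 0 lower, against 9.20% and 6.62% of all probes. The same 2 probes, those of Uqcrh and Uqcrc2, were the ones whose knockout and wild-type arrays did not overlap, higher in the knockout, as was the case for 1.74% of all probes. A positive difference of any size was found at 14 of the 16, against 54.4% of all probes, but at 8 of 16 after quantile normalization and at 9 of 16 in the deposited value table, where 50% and 49.8% of all probes were positive.

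Uqcrh encodes the hinge protein, an acidic small subunit at the docking face for cytochrome c, and it showed the highest difference of the 10 genes. Its log2 level was 3.66 at the lowest, 3.98 at the median and 4.15 at the highest of the 7 knockout arrays, against 3.63, 3.50, 3.48, 3.50 and 3.41 in WT 3, WT 5, WT 6, WT 7 and WT 8. Every knockout array lay above every wild-type array, with KO 4 and WT 3 next to each other. The difference was 0.42 (SE 0.12, 95% interval 0.16 to 0.67), 1.33-fold, and did not pass (limma adjusted p = 0.108). With the 2 sets of sample numbers (1 to 4, 5 to 8) entered as a block it was 0.46 and passed (adjusted p = 0.0398), as did 2.95% of all probes as higher. After quantile normalization the Uqcrh difference was 0.25 (adjusted p = 0.314), and in the arrays numbered 1 to 4 alone it was 0.19 (adjusted p = 0.653).

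The core proteins face the matrix and are related to the peptidase that trims imported precursors. Uqcrc2, core protein 2, had a log2 level of 1.75 at the lowest, 1.92 at the median and 2.27 at the highest in knockout arrays, against 1.64, 1.58, 1.52, 1.54 and 1.47 in WT 3, WT 5, WT 6, WT 7 and WT 8. The groups did not overlap, and KO 5 lay 0.33 above the next knockout array. The difference was 0.38 (SE 0.12, 95% interval 0.12 to 0.63), 1.30-fold, and did not pass (limma adjusted p = 0.142). Without KO 5 it was 0.32 (adjusted p = 0.151). Uqcrc1, core protein 1, had a log2 level of 1.02, 1.40 and 1.51 at the lowest, median and highest of the knockout arrays, against 1.05, 1.07, 1.09, 1.17 and 1.20 in the wild-type arrays. The groups overlapped: KO 1, KO 2, KO 6 and KO 7 were above every wild-type array, KO 3 lay within their range and KO 4 and KO 5 below it. The Uqcrc1 difference was 0.18 (SE 0.13, 95% interval -0.10 to 0.47; adjusted p = 0.530).

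Among the subunits that carry electrons, Uqcrfs1, the Rieske protein that draws electrons from coenzyme Q, had a log2 level of 2.57 at the lowest, 2.98 at the median and 3.54 at the highest in knockout arrays. In WT 3, WT 5, WT 6, WT 7 and WT 8 it was 2.62, 2.95, 2.95, 2.70 and 3.09. The difference of 0.23 (SE 0.19, adjusted p = 0.579) covered a spread among the knockout arrays, since KO 5, KO 6 and KO 7 lay above every wild-type array while KO 1 to KO 4 lay between 2.57 and 2.98. It was 0.43 (limma adjusted p = 0.0751) with the sets of sample numbers as a block and 0.54 (adjusted p = 0.0955) in the arrays numbered 5 to 8 alone. Within slide 2 it was -0.14, but that slide sets KO 1, KO 2 and KO 3 against WT 5 alone. Genotype and set of sample numbers cannot be told apart there. Cyc1 encodes cytochrome c1, which receives the electrons and docks cytochrome c. Its probe at base 1129 of the transcript read 3.67, 4.28 and 4.34 at the lowest, median and highest in knockout arrays, against 4.29, 4.01, 4.0, 3.69 and 4.02 in wild-type arrays. The groups overlapped, with KO 5 below all other arrays. The difference was 0.17 (SE 0.15, adjusted p = 0.604) there, and at the probe at base 1132 it was 0.25 (SE 0.14, adjusted p = 0.405).

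Cycs, somatic cytochrome c itself, had probes that differed in what they showed. The probe at base 325, in the coding sequence, read 2.49, 2.74 and 3.16 at the lowest, median and highest in knockout arrays, against 2.31, 2.89, 2.74, 2.15 and 2.67 in wild-type arrays, a difference of 0.27 (SE 0.18, adjusted p = 0.478). KO 5, KO 6 and KO 7 were again above every wild-type array. With the sets of sample numbers as a block the difference at base 325 was 0.43 (limma adjusted p = 0.101), and in the arrays numbered 5 to 8 alone it was 0.49 (adjusted p = 0.209). Within slide 2 it was -0.32, again from KO 1, KO 2 and KO 3 against WT 5 alone, where genotype and set of sample numbers cannot be told apart. The probe at base 1091 read 3.16, 3.52 and 4.08 in the same order in knockout arrays, against 3.46, 3.76, 3.39, 3.72 and 3.62 in wild-type arrays. Its difference was -0.012 with a 95% interval of -0.41 to 0.38 (adjusted p = 0.986), so knockout levels between 0.754 and 1.31 times the wild-type level lie within the interval.

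The remaining small subunits surround the catalytic core. Uqcrb, which lies near the site where coenzyme Q binds, had a log2 level of 3.51, 3.69 and 3.82 at the lowest, median and highest of the knockout arrays at its probe at base 287, against 3.53, 3.62, 3.57, 3.55 and 3.58 in the wild-type arrays. The wild-type arrays were close together (SD 0.034, against 0.11 in the knockout), and KO 2, KO 4, KO 5, KO 6 and KO 7 lay above all of them. The difference was 0.11 (SE 0.11, adjusted p = 0.645). The probe at base 898 was dim, well above background on 10 of 12 arrays, with a difference of 0.27 (SE 0.18, adjusted p = 0.493). Uqcrq, a subunit that lies beside cytochrome b, read 5.20, 5.34 and 5.50 at base 402 at the lowest, median and highest of the knockout arrays, against 5.62, 5.32, 5.19, 4.75 and 5.26 in the wild-type arrays. All knockout values lay inside the wild-type range. Its probes gave differences of opposite sign, 0.11 (limma adjusted p = 0.761) at base 402 and -0.20 (adjusted p = 0.636) at base 1434. The probe at base 1434 was much dimmer, with means of -1.93 in knockout and -1.73 in wild-type arrays, against 5.34 and 5.23 at base 402.

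Uqcr11, another small membrane-spanning subunit, also had probes that disagreed in size. At base 187 it read 3.05, 3.30 and 3.73 at the lowest, median and highest in knockout arrays, against 3.46, 3.36, 2.88, 3.18 and 3.31 in wild-type arrays, a difference of 0.084 (SE 0.15, adjusted p = 0.833). At base 495 it read 0.097, 0.33 and 0.75 in knockout arrays, against 0.74, -0.071, 0.0081, -0.38 and -0.46 in wild-type arrays, a difference of 0.37 (SE 0.20, adjusted p = 0.388). WT 3 lay inside the knockout range there and the other 4 wild-type arrays below it. Without WT 3 the difference at base 495 was 0.57 (adjusted p = 0.0656).

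**Figure D1:**
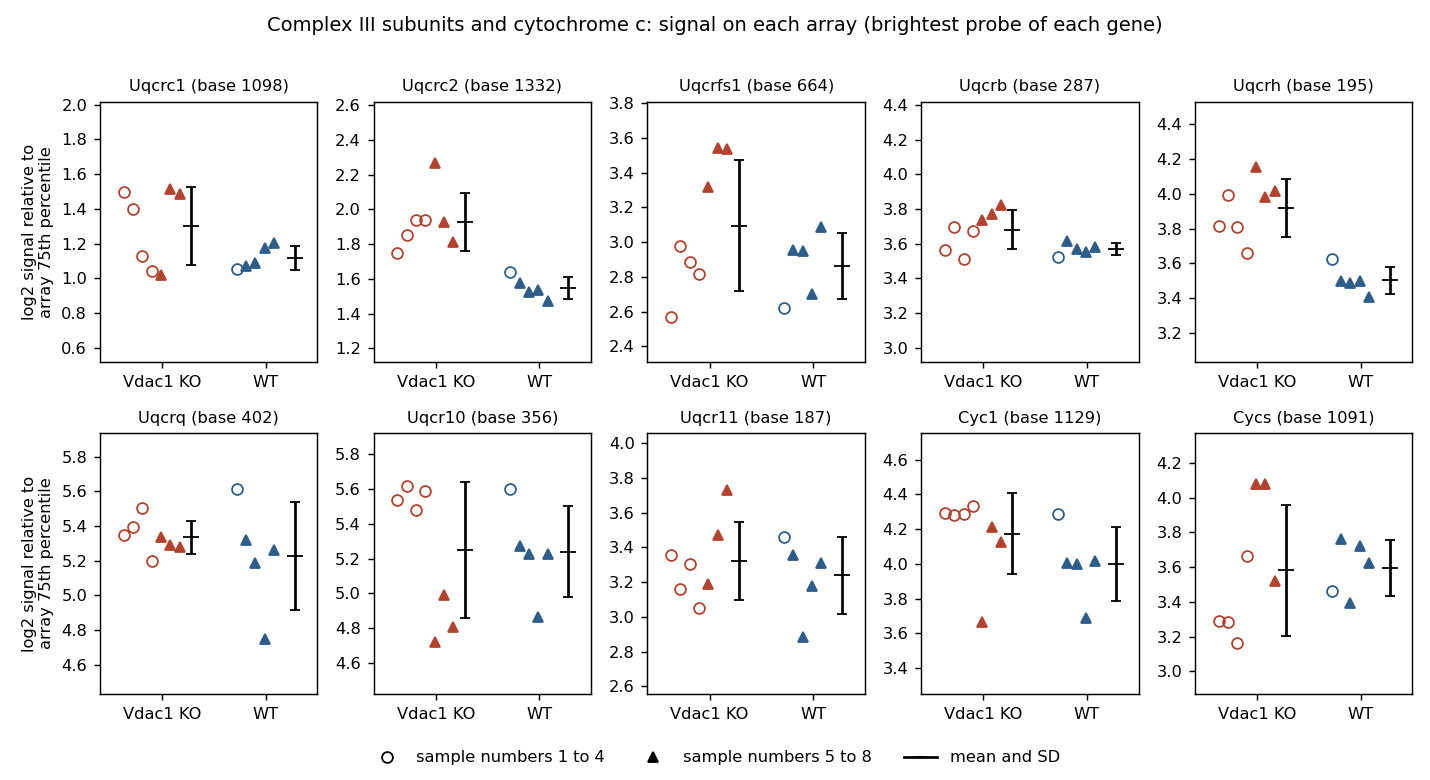
Log2 level relative to the array's 75th percentile at the brightest probe of each gene, one point per array, Vdac1 knockout left and wild type right, with open circles for sample numbers 1 to 4, filled triangles for 5 to 8, and the mean with SD as black bars. The groups are apart in Uqcrc2 and Uqcrh and overlap in the other 8 genes. The vertical axes span the same number of log2 units but start at different levels.

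**Figure D2:**
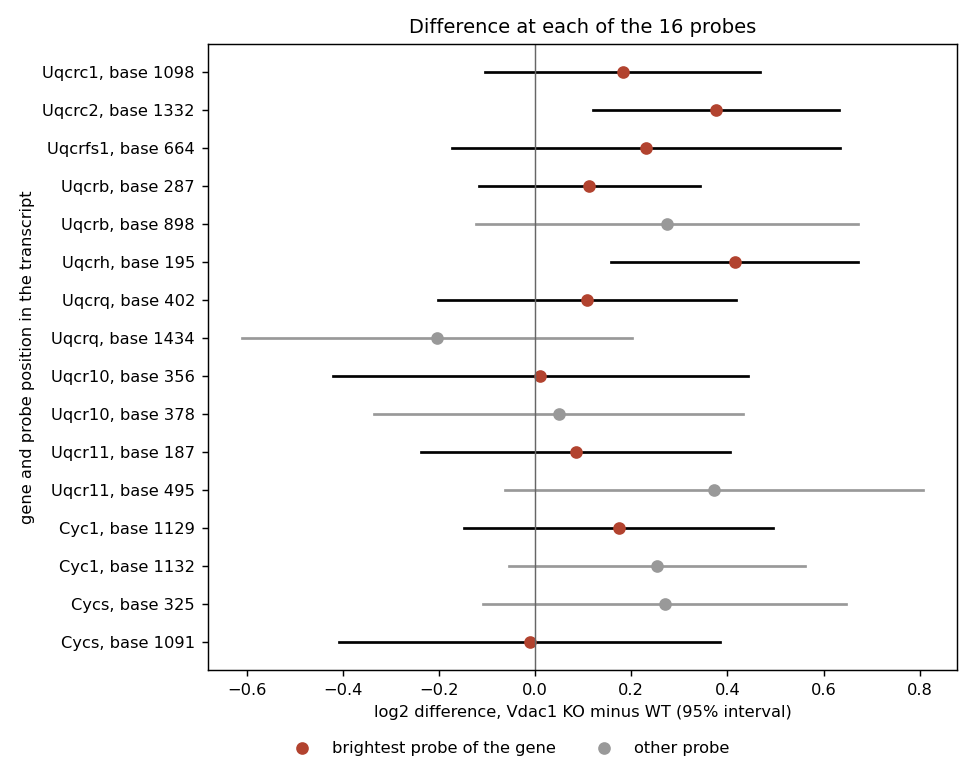
Log2 difference, knockout minus wild type, with its 95% interval at each of the 16 probes, the brightest probe of each gene in colour. The intervals of Uqcrc2 (0.12 to 0.63) and Uqcrh (0.16 to 0.67) lie above 0 and the other 14 include it, and no probe passed the adjusted threshold. After quantile normalization 8 of the 16 points were positive, against the 14 drawn here.

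Within the knockout some of the genes split by sample number, in opposite directions, at counts near the share of all probes. KO 1 to KO 4 lay above KO 5 to KO 7 without overlap at 3 of the 16 probes (both of Uqcr10 and Cyc1 at base 1129), against 16.8% of all probes, and below them at 3 (Uqcrfs1, Uqcrb at base 287 and Cycs at base 325), against 20% of all probes. These knockout arrays overlapped at the other 10 probes. Uqcr10, a small membrane-spanning subunit next to cytochrome c1, had a log2 level at base 356 of 4.72, 5.48 and 5.62 at the lowest, median and highest in knockout arrays, against 5.60, 5.27, 5.22, 4.87 and 5.23 in wild-type arrays. KO 1 to KO 4 averaged 5.56 and KO 5 to KO 7 averaged 4.84, while WT 3 read 5.60 and WT 5 to WT 8 averaged 5.15. Both Uqcr10 probes and the Cyc1 probe at base 1129 were higher in all 5 arrays numbered 1 to 4 than in all 7 numbered 5 to 8, 3 of 16 probes against 6.81% of all probes, and 0 of 16 were lower without overlap, against 7%. Uqcrfs1 averaged 2.81 in KO 1 to KO 4 and 3.47 in KO 5 to KO 7, with WT 3 at 2.62 and WT 5 to WT 8 at 2.92. The Cycs probe at base 1091 averaged 3.35 and 3.89 in the same knockout arrays, which overlapped (KO 4 at 3.66, KO 7 at 3.52), with WT 3 at 3.46 and WT 5 to WT 8 at 3.63. These are descriptions, since the split was known from earlier results of these data, and number and slide were not balanced.

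The genotype difference itself was compared between the sets of sample numbers with an interaction term, and 0 of the 16 probes passed (limma adjusted p under 0.05), against 1.70% of all probes. At unadjusted p under 0.05 there was 1 of 16, against 16.4% of all probes. It was the Uqcr11 probe at base 495, with an interaction of 0.77 (SE 0.32, adjusted p = 0.252). Uqcr10 had a difference of 0.011 (SE 0.20, adjusted p = 0.988) at base 356 and of 0.049 (SE 0.18, adjusted p = 0.929) at base 378, and with the sets of numbers as a block these were -0.22 (adjusted p = 0.308) and -0.17 (adjusted p = 0.331). Averaged over the 10 genes, each centred on its mean over the 12 arrays, the level was 0.0086 at the lowest, 0.061 at the median and 0.19 at the highest of the knockout arrays, against 0.0012, -0.044, -0.16, -0.22 and -0.069 in WT 3, WT 5, WT 6, WT 7 and WT 8. On this average the groups did not overlap, and KO 4 and WT 3 were next to each other. They did overlap under other scalings: after quantile normalization the knockout arrays ran between -0.072 and 0.22 and the wild-type arrays between -0.15 and 0.11, and in the deposited value table the ranges were -0.097 to 0.24 in the knockout and -0.16 to 0.14 in wild type. KO 6 held the highest value of the 12 arrays in 3 genes, and KO 5 the highest in 2 and the lowest in 3.

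**Figure D3:**
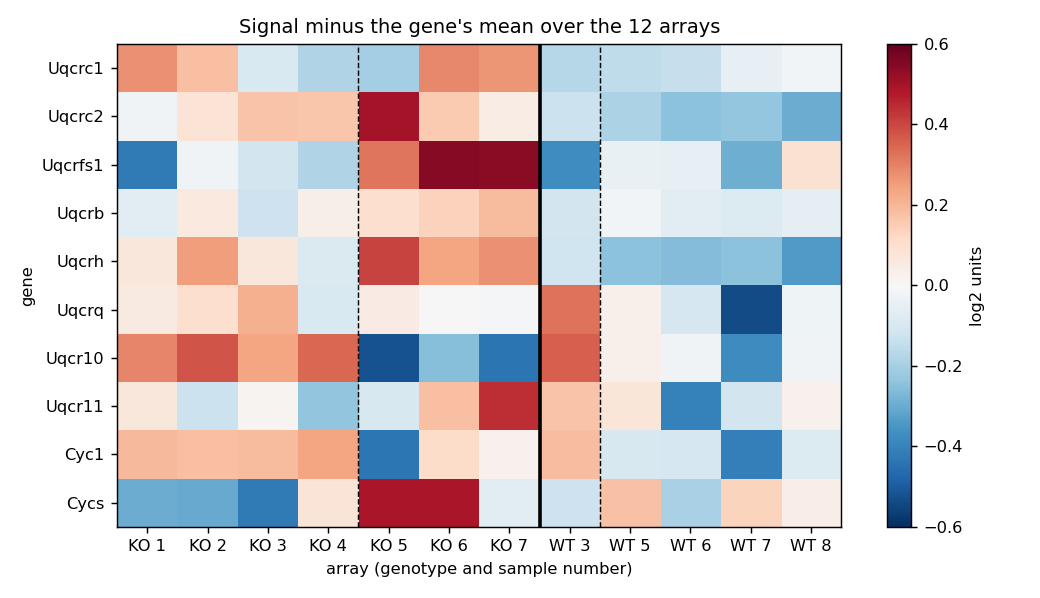
Log2 level of each gene minus its mean over the 12 arrays at the brightest probe, as colours, with knockout arrays left of the solid line and wild type right of it, and dashed lines between sample numbers 1 to 4 and 5 to 8 within each genotype. Uqcr10 averaged 5.56 in KO 1 to KO 4 and 4.84 in KO 5 to KO 7, while Uqcrfs1 averaged 2.81 and 3.47 in the same arrays.

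Several probes share sequence, so their readings are not independent. The Cyc1 probes overlap over 57 bases with 57 identical, and their levels over the 12 arrays had a Pearson r of 0.44. The Uqcr10 probes overlap over 38 bases with 37 identical (r = 0.95). The files place the Uqcr10 probe at base 378 on chromosome 15 of rn4 and leave the one at base 356 without a position, whereas RefSeq lists Uqcr10 on chromosome 14 of GRCr8 and a pseudogene, Uqcr10-ps1, on chromosome 15 of that build. The builds differ, so positions were not compared, and which of these transcripts each Uqcr10 probe reads is not settled. The pairs with no such overlap had r of 0.44 (Uqcrb), -0.58 (Uqcrq), 0.18 (Uqcr11) and 0.52 (Cycs), each over 12 arrays. The probe of a predicted Uqcrb-like transcript on the same array aligns with the Uqcrb probe at base 287 over 54 bases, of which 51 are identical, and the files give it almost the same place, chr7:67959052-67959111 against chr7:67959058-67959117, reverse strand. Counted from the 5′ end of the Uqcrb probe, the changes are C14T, G17A and G27A, in capitals below. The levels of genes with such copies are uncertain for that reason.
Uqcrb probe: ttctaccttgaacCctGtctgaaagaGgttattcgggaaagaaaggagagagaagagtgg
Uqcrb-like probe: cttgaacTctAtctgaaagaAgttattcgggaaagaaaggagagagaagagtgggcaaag
The Uqcrb-like probe averaged 1.73 ± 0.12 (SD, n = 7) in knockout arrays and 1.65 ± 0.15 (SD, n = 5) in wild-type arrays, a difference of 0.073 (adjusted p = 0.809), beside the 0.11 of the Uqcrb probe. A second Uqcrb-like transcript differed by 0.32 (SE 0.19, adjusted p = 0.422). The probe of an unnamed transcript that aligns with the Cycs probe at base 325 over 58 bases, 46 of them identical, differed by 0.41 (SE 0.17, adjusted p = 0.276), and the predicted transcript described in the files as like Uqcr10 differed by 0.084 (SE 0.19, adjusted p = 0.876).

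The genes that serve complex III were read from lists, with the brightest probe for each gene. The 10 complex III and cytochrome c genes had a median difference of 0.14, with 9 positive. Over all 14742 genes or other features tested the median was 0.040, and 8145 (55.3%) were positive. The median of the 10 genes was below 0 under other scalings. It was -0.028, with 4 of 10 positive, after quantile normalization, and -0.014, with 5 of 10 positive, in the deposited value table. None of the lists had a member that passed the test in either direction, where 0.704% of all probes passed as higher and 0.442% as lower. At unadjusted p under 0.05, 9.26% of the 14742 were higher and 6.20% lower. Complex I held 2 of 34 that were higher, complex IV 4 of 14 higher and 1 lower, ATP synthase 1 of 16 higher, the supercomplex factors 2 of 8 higher, the cytochrome c relatives and apoptosome 2 of 6 higher and the other electron donors to coenzyme Q 2 of 10 lower, while the assembly factors, the matrix peptidase, coenzyme Q synthesis and the regulators held 0. Of the 6 assembly factors of complex III, 4 were positive, with a median of 0.13. Uqcc2 differed by 0.28 (SE 0.14, adjusted p = 0.338) and Uqcc3 by 0.40 (SE 0.20, adjusted p = 0.341), and both take part in the early assembly of cytochrome b. Pmpca and Pmpcb, the matrix peptidase related to the core proteins, differed by 0.12 (adjusted p = 0.812) and 0.072 (adjusted p = 0.809).

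On the cytochrome c side, 6 of 7 genes were tested, and none passed. Casp9, the caspase that the apoptosome activates, had a difference of 0.69 (SE 0.26, adjusted p = 0.213) from a probe well above background on 6 of 12 arrays. Hccs, which attaches heme to cytochromes c and c1, differed by -0.082 (adjusted p = 0.850) and Apaf1, the scaffold of the apoptosome, by -0.23 (adjusted p = 0.762). Cyct, the testis form of cytochrome c, was well above background on 1 array and was not tested.

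Counts of positive genes are to be read beside the 55.3% of all genes or other features that were positive. Upstream of complex III, 9 of 12 tested genes of coenzyme Q synthesis were positive, with a median of 0.12. Those with the smallest p were Coq10b at -0.34 (SE 0.17, limma adjusted p = 0.342) and Coq6 at 0.34 (SE 0.18, adjusted p = 0.370). Of the 10 tested genes on the routes of electrons to coenzyme Q outside complex I, 7 were positive and 2 were lower at unadjusted p under 0.05. These were Gpd2, the mitochondrial glycerol-phosphate dehydrogenase, at -0.61 (SE 0.22, adjusted p = 0.195), and Etfdh, which passes on electrons from fatty acid oxidation, at -0.38 (SE 0.17, adjusted p = 0.305). Among complex I subunits 27 of 34 were positive (median 0.14). Ndufc2 at 0.39 (SE 0.12, limma adjusted p = 0.134) had groups that did not overlap, as did 272 of all 14742 genes or other features as higher. Ndufab1 differed by 0.34 (adjusted p = 0.274).

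Downstream, 11 of 14 complex IV subunits were positive (median 0.23), where 55.3% of all genes or other features were positive. The smallest p belonged to Cox6a2, the muscle isoform, at -1.84 (SE 0.51, adjusted p = 0.10), followed by Cox8a at 0.43 (SE 0.14, adjusted p = 0.153). Of 16 ATP synthase genes 13 were positive (median 0.13), led by Atp5f1b at 0.35 (SE 0.13, adjusted p = 0.202) and Atp5po at 0.20 (adjusted p = 0.399). Among 8 supercomplex factors, which hold complexes III and IV together or shape the membrane around them, 6 were positive (median 0.25), and Higd2a differed by 0.50 (SE 0.15, adjusted p = 0.123) and Phb1 by 0.41 (SE 0.13, adjusted p = 0.153). Of 10 tested regulators of respiratory gene transcription 4 were positive (median -0.074), with Nrf1 at -0.40 (SE 0.21, adjusted p = 0.366) and Tfam at 0.27 (SE 0.18, adjusted p = 0.484). After quantile normalization the medians of complex IV and ATP synthase were 0.10 and 0.0017.

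**Figure D4:**
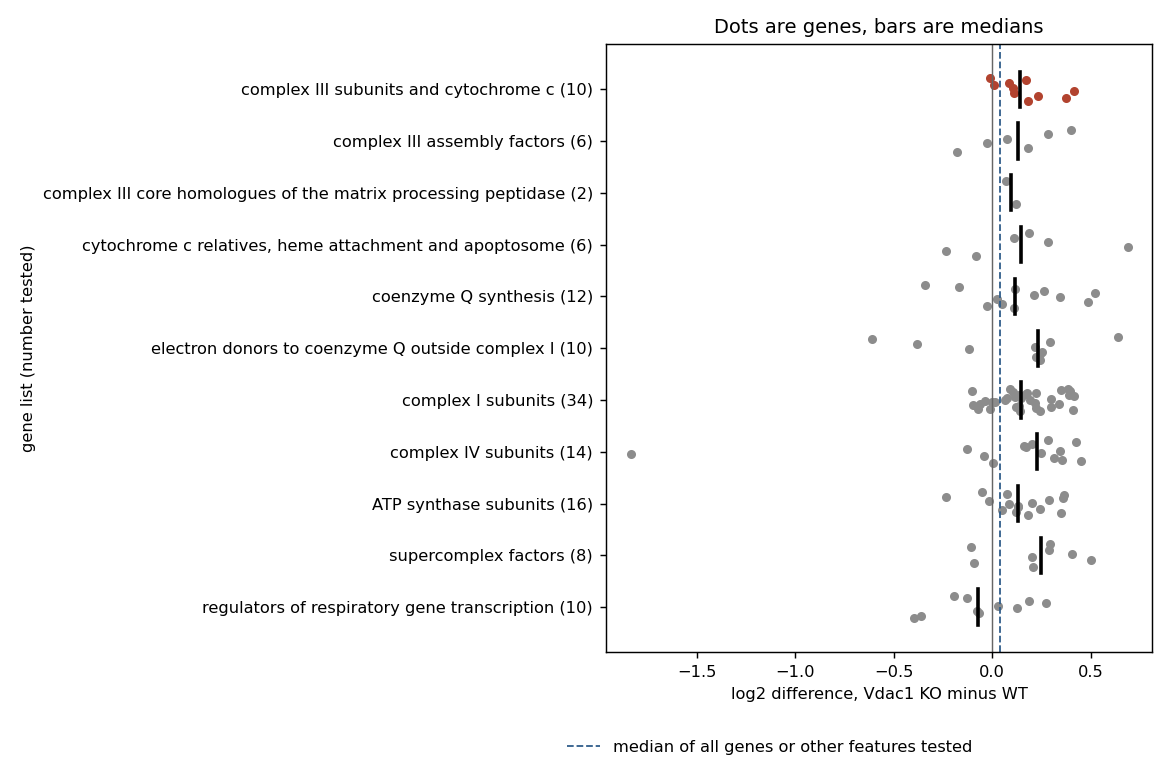
Log2 difference, knockout minus wild type, of each tested gene (dots) in the lists around complex III, with the list's median as a black bar, the number tested in brackets, and the median of all 14742 genes or other features tested as a dashed line. The complex III and cytochrome c genes run between -0.012 and 0.42 with a median of 0.14, which was -0.028 after quantile normalization, and Cox6a2 lies farthest out at -1.84.

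The probes whose values over the 12 arrays were most like the mean of the 10 genes, by Pearson r and without regard to function, were those of Hint1 (r = 0.97), Gtf2h5 (0.96), Ppif (0.94), Uchl3 (0.94) and Hmgn2 (0.93). Ppif encodes cyclophilin D, a matrix protein that regulates the permeability transition pore. It differed by 0.55 (SE 0.15, adjusted p = 0.0891), Gtf2h5 by 0.60 (SE 0.16, adjusted p = 0.0890) and Hint1 by 0.31 (SE 0.13, adjusted p = 0.262). These probes were picked for likeness to a mean on which the genotypes did not overlap, so a positive difference with a small p follows from the choice. The 12 points share arrays and scaling, and the values are descriptions.

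At the probes of Uqcrh and Uqcrc2 every knockout array lay above every wild-type array, so subsets, blocks and weightings of the arrays could only give a positive difference. Filters left the difference as it was. Only other scalings, background correction and the deposited value table could have turned its sign. After quantile normalization the difference was 0.25 for Uqcrh and 0.32 for Uqcrc2. Across the 30 other settings tried the difference stayed positive. For Uqcrh it ran between 0.19 and 0.58, with adjusted p between 0.0037 and 0.894, and for Uqcrc2 between 0.23 and 0.57, with adjusted p between 0.0065 and 0.892. Within slides 1, 2 and 3 Uqcrh differed by 0.48, 0.37 and 0.41 and Uqcrc2 by 0.31, 0.27 and 0.57, and none of these passed. Within slide 2 WT 5 was the only wild-type array, set against KO 1, KO 2 and KO 3, and its spread was taken from the knockout arrays. With limma's array weights, which ran between 0.30 and 3.96, 5 of the 16 probes passed as higher, those of Uqcrh, Uqcrc2, Uqcr11 at base 495 and both of Cyc1, but so did 17.8% of all probes, with 16.1% lower. The weights were 2.02, 2.53 and 3.26 for KO 1, KO 2 and KO 3, 2.43 and 3.96 for WT 5 and WT 8, and at most 0.81 for the other arrays. This fit thus mostly set low-numbered knockouts against wild types of the other set of numbers, so genotype and number cannot be told apart in it.

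**Figure D5:**
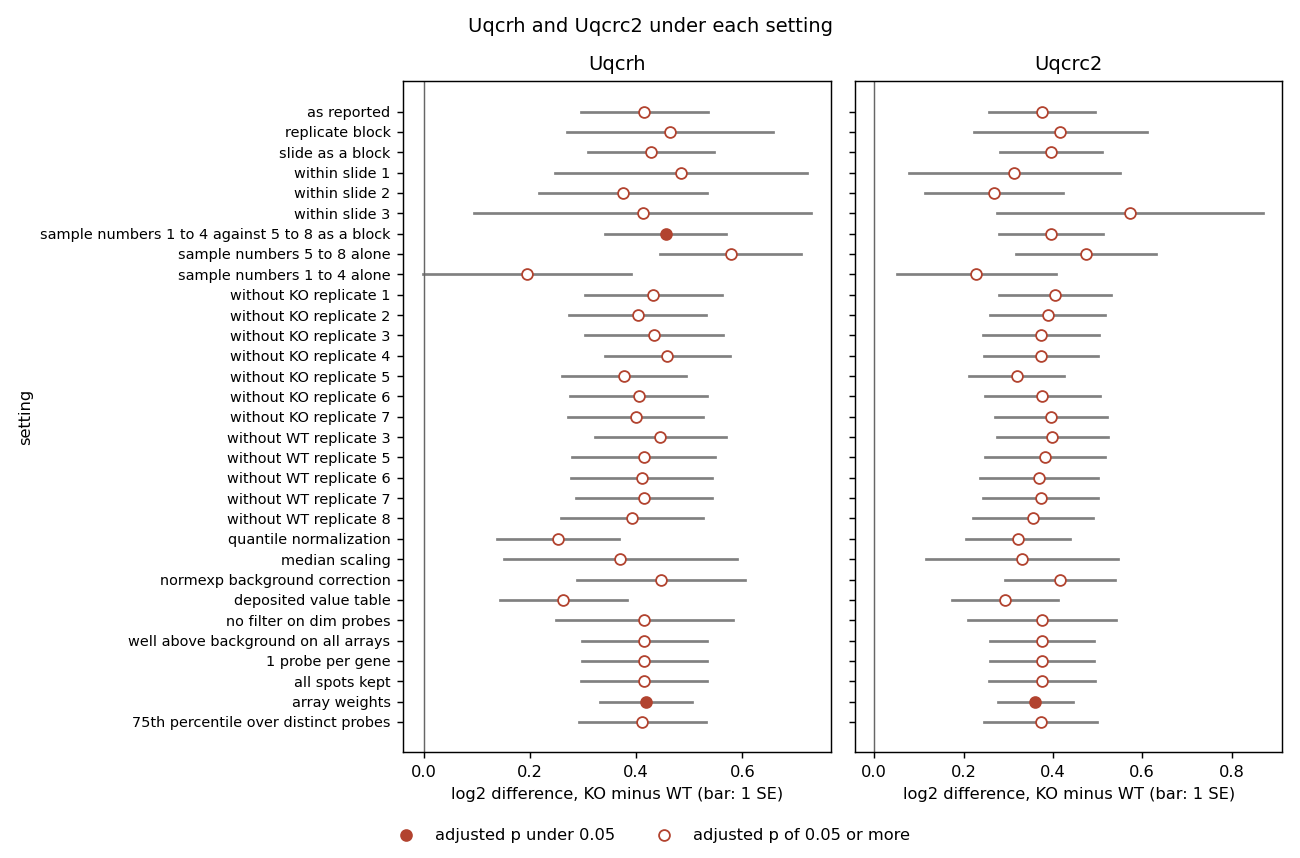
Log2 difference, knockout minus wild type, with 1 SE on either side, for Uqcrh (left panel) and Uqcrc2 (right panel) under the reported setting and the 30 others, filled where the adjusted p was under 0.05. All points lie above 0, which subsets and weightings of the arrays had to give because the groups do not overlap at these probes. Uqcrh is filled under 2 settings, the sets of sample numbers as a block (limma adjusted p = 0.0398) and array weights (0.0037), and Uqcrc2 under 1, array weights (0.0065). The array weights were highest for KO 1, KO 2, KO 3, WT 5 and WT 8.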

How the data were processed

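Total RNA from 7 knockout and 5 wild-type cultures had been prepared by a Trizol extraction and Cy3 labelling (per the labels' protocols) and read with Agilent Feature Extraction 10.7, per the submitters' processing notes (10.1.1.1 per the file headers). Per the file headers, each deposited scanner file gives linear intensity for every spot, as processed signal, mean signal and local background, and other columns hold yes-or-no flags. The deposited value table holds the authors' log2 values, whose columns share 1 set of sorted values, with a lowest value of 1.5 and a median of 3.06, and follows the scanner signal with a Spearman correlation of 0.998 across probes.

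From these files, flagged uneven or outlying spots were dropped, log2 processed signal was averaged per probe, and each array's 75th percentile over its 58717 non-control spots was subtracted. Of 45598 probes 21109 were named through RefSeq by accession, 6684 by symbol and 424 by synonym, and 17381 kept the file's name. Probes well above background on at least 5 of 12 arrays were tested with limma 3.58.1 in R 4.3.3 (lmFit, eBayes, two-sided, no covariate), with Benjamini-Hochberg adjusted p under 0.05 over all 17890 probes. The fit was also run on simulated data with independent noise on each array. The simulation held no split by sample number, so it does not cover that feature of these arrays. For lists, the probe with the highest mean stood for a gene. No member value was missing. The number of arrays limits the precision, and no spot was saturated.

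The members, lists and tests were chosen with earlier results of these data known. Alternatives were other blocks (slide, sample number, sets of sample numbers), subsets of arrays, scalings, background correction, filters, array weights, the deposited table and 1 probe per gene, and 2 were added after the data were seen: the 75th percentile over distinct probes and sample numbers 1 to 4 alone. Named beside the members are, of each list, the 2 genes with the smallest p (none passed; 1 of these genes is not reported here), a few others by their role, chosen after their values were seen, and the 5 probes most like the members' mean. Of the lists, 5 genes (Pdss1, Ndufa3, Ndufb1, Cox7a1 and Taz) had no probe under that name. A check of pairing found same-numbered knockout and wild-type arrays to deviate with correlations between -0.11 and 0.45 over 17875 probes, so the numbers were not taken as pairs.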

Additional observations from a re-analysis of the deposited data

Results flagged for a closer look

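In 4 of the 32 groups of arrays examined (16 probes in 2 genotypes) 1 array stood apart from the rest by Dixon's test, which chance does in about 1 of 20 groups. KO 5 read 2.27 at the Uqcrc2 probe, above the other knockout arrays, and 3.67 at the Cyc1 probe at base 1129, below them. KO 4 read 3.74 at the Cyc1 probe at base 1132, below the other knockout arrays. WT 3 read 5.11 at the Uqcr10 probe at base 378, 0.48 above the next wild-type array. Without the array that stood apart the differences, knockout minus wild type, were 0.32 for Uqcrc2 (adjusted p = 0.151), 0.26 (adjusted p = 0.303) and 0.31 (adjusted p = 0.327) for Cyc1 and 0.15 (adjusted p = 0.672) for Uqcr10, and none passed with limma. The low KO 5 reading at base 1129 and the low KO 4 reading at base 1132 came from probes that share 57 bases, and KO 5 was not low at base 1132 (4.09) nor KO 4 at base 1129 (4.34).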

How the results depend on the processing

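The 16 member probes, given below by gene and base, were refitted under 30 other settings. Uqcrh and Uqcrc2 stayed positive under each of them, which the lack of overlap between their groups fixed in advance for subsets and weightings of the arrays. Of the comparisons of a member probe with its reported difference, 407 kept sign and side of the threshold, 6 kept the sign and newly passed and 60 turned sign. No member probe had passed as reported, so no turn of sign could concern a difference that had passed. With the sample number in the labels as a replicate block, the differences at Uqcr10 356, Uqcr10 378 and Cycs 1091 were -0.24, -0.19 and 0.12 and 0 probes of all tested passed as higher and 0 as lower. With slide as a block, the differences at Uqcr10 356, Uqcr10 378 and Cycs 1091 were -0.073, -0.013 and 0.065 and 284 probes of all tested passed as higher and 188 as lower. Within slide 1, the differences at Uqcrq 402, Uqcr10 356, Uqcr10 378, Cyc1 1132 and Cycs 1091 were -0.15, -0.52, -0.47, -0.0020 and 0.25, 0 probes of all tested passed as higher and 0 as lower and the list medians of complex III and cytochrome c, assembly factors, ATP synthase and regulators were 0.25, -0.081, 0.19 and 0.064. Within slide 2, the differences at Uqcrfs1 664, Uqcrb 287, Uqcr11 187 and Cycs 325 were -0.14, -0.027, -0.086 and -0.32, 1105 probes of all tested passed as higher and 1063 as lower and the list medians of complex III alone, cytochrome c relatives, electron donors, complex I and regulators were 0.27, -0.036, -0.0058, 0.29 and -0.24. Within slide 3, the differences at Uqcrc1 1098 and Cycs 1091 were -0.097 and 0.31, 0 probes of all tested passed as higher and 0 as lower and the list medians of assembly factors and cytochrome c relatives were 0.25 and 0.28. With the 2 sets of sample numbers as a block, the differences at Uqcr10 356, Uqcr10 378 and Cycs 1091 were -0.22, -0.17 and 0.14, 528 probes of all tested passed as higher and 385 as lower and 1 of the member probes passed. In sample numbers 5 to 8 alone, the differences at Uqcr10 356, Uqcr10 378 and Cycs 1091 were -0.31, -0.21 and 0.27, 360 probes of all tested passed as higher and 393 as lower and the list medians of complex III and cytochrome c, ATP synthase, supercomplex factors and regulators were 0.24, 0.21, 0.41 and 0.029. In sample numbers 1 to 4 alone, the differences at Uqcrq 402, Uqcrq 1434, Uqcr10 356, Uqcr10 378, Uqcr11 187, Uqcr11 495 and Cyc1 1132 were -0.26, 0.040, -0.046, -0.087, -0.24, -0.32 and -0.17, 47 probes of all tested passed as higher and 6 as lower and the list medians of complex III and cytochrome c, complex III alone, assembly factors, electron donors, complex I, complex IV and ATP synthase were 0.050, 0.085, -0.067, -0.073, -0.053, 0.0033 and 0.010. After quantile normalization, the differences at Uqcrb 287, Uqcrq 402, Uqcr10 356, Uqcr10 378, Uqcr11 187 and Cyc1 1129 were -0.040, -0.086, -0.19, -0.16, -0.053 and -0.015, 66 probes of all tested passed as higher and the list medians of complex III and cytochrome c, complex III alone, complex IV and ATP synthase were -0.028, -0.015, 0.10 and 0.0017. With median scaling, the difference at Uqcr10 356 was -0.034 and 0 probes of all tested passed as higher and 0 as lower. With normexp background correction, the difference at Cycs 1091 was 0.047, 21 probes of all tested passed as higher and 10 as lower and the list medians of complex III and cytochrome c, assembly factors and coenzyme Q synthesis were 0.23, 0.00093 and 0.010. In the deposited value table, the differences at Uqcrb 287, Uqcrq 402, Uqcr10 356, Uqcr10 378 and Uqcr11 187 were -0.044, -0.055, -0.15, -0.10 and -0.047, 64 probes of all tested passed as higher and the list medians of complex III and cytochrome c, complex III alone and ATP synthase were -0.014, 0.017 and -0.00086. With no filter on dim probes, 0 probes of all tested passed as higher and 0 as lower. With probes well above background on all arrays, 211 probes of all tested passed as higher and 132 as lower. With array weights, the differences at Uqcrfs1 664, Uqcr11 187 and Cycs 325 were -0.074, -0.000032 and -0.048, 3179 probes of all tested passed as higher and 2883 as lower, 5 of the member probes passed and the list medians of the peptidase, ATP synthase and regulators were 0.31, 0.20 and -0.21. When each array was left out in turn, the differences ran between -0.011 and 0.20 at Uqcrq 402, between -0.083 and 0.10 at Uqcr10 356, between -0.0033 and 0.15 at Uqcr10 378, between -0.0042 and 0.14 at Uqcr11 187 and between -0.094 and 0.059 at Cycs 1091. The count of all probes passing as higher ran between 13 and 442. The count of all probes passing as lower ran between 4 and 333. The extremes came without WT 3 (442 and 333), WT 5 (13 higher) and WT 8 (4 lower). Only without WT 3 did the counts rise past 1.5 times the reported 126 and 79. Without any other array they fell by more than a factor of 1.5, except without KO 5 for higher probes. Where limma passed 0 probes, those at unadjusted p under 0.05 were 1077 higher and 772 lower with the replicate block, 1184 and 957 within slide 1, 518 and 446 within slide 3, 626 and 867 with median scaling and 1318 and 1116 with no filter. The causes were not tested. The shift of all probes was within 0.1 log2 units in each setting, between -0.068 without the filter and 0.074 in sample numbers 5 to 8 alone. With the replicate block, which the check of pairing did not bear out, Uqcrh was 0.46 (adjusted p = 0.479) and Uqcrc2 0.42 (adjusted p = 0.517). The numbers 1 to 4 and slide 2 each hold 1 wild-type array (WT 3 and WT 5), whose spread is taken from the knockout arrays there. Those counts therefore set the knockout against a single array. On slide 2 the knockout arrays were KO 1, KO 2 and KO 3, so genotype and set of sample numbers cannot be told apart there.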
